A study of Mus musculus with 23 samples.

Results

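The transcriptional response of mouse embryonic stem cells (ESCs) to 4 d of retinoic acid (RA) was followed in R1 cells, a mouse ESC line, of genotype Wt (wild type, WT) and SET-/- (SET knockout, KO). The samples were chosen by title from set 2 of the R1 libraries: 13 libraries that made up 9 samples, out of 23 libraries in the series. RNA was measured by QuantSeq, which counts reads at the 3′ end of polyadenylated transcripts. The untreated samples were 2 WT (2a and 2b), 2 of line KO1 (2c and 2d) and 2 of line KO2 (2e and 2f). The samples after RA were 1 WT (2g) and 2 KO (2h and 2i), both titled KO1. The deposited data of 2i, however, carry the code that otherwise belongs to the KO2 samples. With line as the covariate, 8551 genes were called with 2i as KO1 and 9083 with 2i as KO2 (chosen after seeing the data), against 9147 in the fit reported below, which takes both lines as KO. All samples came from cultures described as grown on plates coated with mouse embryonic fibroblasts (feeders), in serum with LIF, the cytokine that sustains ESC self-renewal. The labels give no dose of RA and do not say whether feeders or LIF were kept during the 4 d, so RA and any such change of culture cannot be told apart here. How many clones the lines KO1 and KO2 represent is not stated, and no label says that replicates were separate cultures. The p-values therefore reflect how these samples varied, and that variation may be technical.

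Assigned counts ran from 2833064 to 10217040 in the untreated samples and from 3904924 to 5047363 after RA. The 3 RA samples stood apart from the 6 untreated ones along the leading principal component, which held 69.1% of the variance. Correlations of log2 CPM across genes were 0.977 to 0.983 among RA samples, 0.955 to 0.982 among untreated samples and 0.854 to 0.900 between the groups. Levels are given as CPM, counts scaled to library size with TMM factors. Fold changes are log2 values of RA over untreated from edgeR with genotype as a covariate, and a gene is called where its Benjamini-Hochberg adjusted p is under 0.05.

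RA is made from vitamin A by retinol and retinaldehyde dehydrogenases, is carried inside the cell by binding proteins and is broken down by enzymes of the CYP26 family. It binds nuclear receptors of the RAR family, which pair with RXR receptors on DNA and switch on genes such as those of the Hox clusters. In ESCs it is a classical inducer of differentiation, known for silencing pluripotency genes and, depending on culture, for driving cells to neural, mesodermal or extraembryonic endoderm fates.

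The 3 genes taken here as markers of RA treatment rose in the RA samples, and the marker taken for undifferentiated ESCs fell. Hoxa5 and Stmn4 are also among the highest fold changes of this same comparison, so their values are a description only. Cyp26b1, an RA-degrading enzyme, stood at 32.5 to 52.9 CPM in the untreated samples (median 43.7) and at 831 (2g), 912 (2h) and 821 (2i) after RA. Hoxa5, a positional Hox gene, stood at 4.22 to 9.51 (median 8.10) and at 244, 172 and 151 after RA. Stmn4, a microtubule-binding stathmin of neurons, stood at 6.06 to 19.3 (median 14.3) and at 419, 330 and 410. In these 3 genes every RA sample lay above every untreated sample. Nanog, a core pluripotency factor, stood at 78.9 to 142 CPM (median 111) and at 10.4, 11.7 and 12.0 after RA, below every untreated sample. The log2 fold changes were 4.30 (SE 0.10, adjusted p = 2.32e-17) for Cyp26b1, 4.56 (SE 0.13, 2.14e-16) for Hoxa5, 4.92 (SE 0.23, 2.22e-08) for Stmn4 and -3.24 (SE 0.16, 3.70e-13) for Nanog. On GRCm38, Cyp26b1 lies on chromosome 6 at 84571414 to 84593908 (minus strand), Hoxa5 on chromosome 6 at 52201754 to 52204587 (minus), Stmn4 on chromosome 14 at 66344296 to 66361680 (plus) and Nanog on chromosome 6 at 122707489 to 122714633 (plus).

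RA moved most measured genes. Of 14659 genes tested, 9147 were called (62.4%), 4625 higher (31.6%) and 4522 lower (30.8%), and 4777 of them changed more than 2-fold. The RA samples all lay above the untreated ones for 27.3% of genes and all below for 25.5%. Any count of listed genes below has to be read against these shares, and the median log2 fold change of all tested genes was -0.02. Scaling with TMM factors draws this median toward 0, so a shift of all RNA would not be seen. In a fit with a separate effect for each genotype, 6858 genes (46.8%) were called in WT and 8006 (54.6%) in KO. Those called in both with the same direction numbered 5916 (40.4%), 3120 higher and 2796 lower, which is 86.3% of the WT calls and 73.9% of the KO calls. Another 7 genes were called in opposite directions. The WT and KO contrasts share no sample, and their log2 fold changes had Pearson r = 0.823 and Spearman rho = 0.862 across genes, which are not independent replicates. The WT contrast rests on 1 RA sample whose spread is borrowed from the other groups.

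The difference between the WT and KO effects was called for 132 genes (0.900%), 97 of them among the 5916. This does not show that the other effects are equal: the 95% interval of the difference lay within 1 log2 unit on either side of 0 for 52.5% of the 5916, with a median absolute difference of 0.30. For Cyp26b1 the effects were 4.36 in WT and 4.26 in KO, with an interval of the difference (KO minus WT) from -0.54 to 0.35. Hoxa5 rose by 4.77 in WT and 4.42 in KO on the log2 scale (interval -0.93 to 0.23), and Nanog changed by -3.65 and -3.07 (interval -0.10 to 1.27). Stmn4 rose in both genotypes but by less in KO, at 5.86 in WT and 4.47 in KO (interval -1.90 to -0.87, adjusted p = 0.00550).

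**Figure D1:**
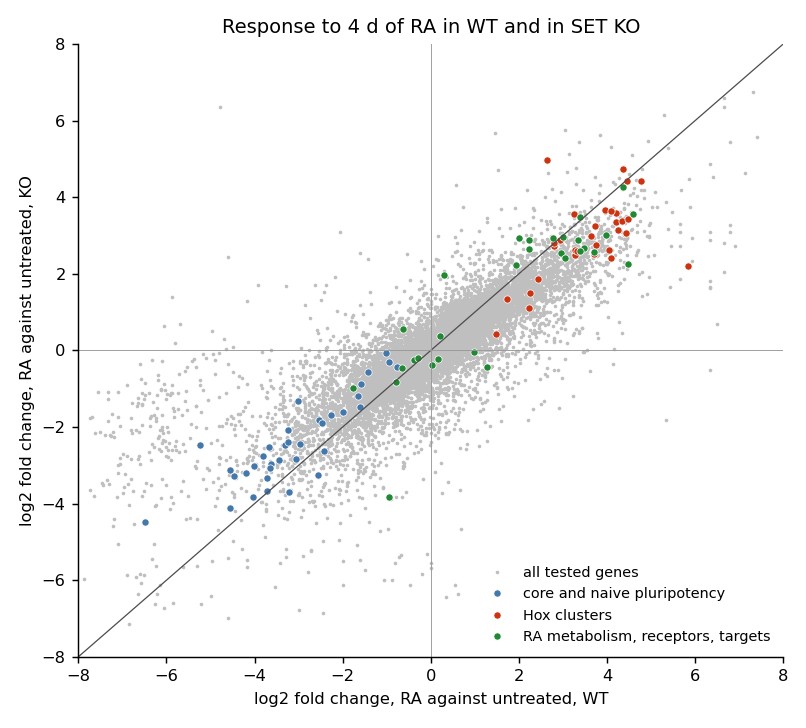
Log2 fold change after 4 d of RA in WT (x axis) against KO (y axis), 1 grey point per tested gene, with coloured points for the RA, Hox and pluripotency lists and a line of equal change. The axes reach 8 log2 units on either side of 0, which leaves out 5 of 14659 genes, and the Hox points lie in the upper right and the pluripotency points in the lower left.

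Of 33 genes of RA metabolism, transport, reception and early response, 30 had enough counts to test, and 19 rose, 5 fell and 6 were not called (median log2 fold change 2.54). Without sample 2i only 3 fell, of 29 tested. Genes called in both genotypes numbered 15 higher and 2 lower. Taken singly, WT had 16 called higher and 2 lower, and KO had 19 and 5. Aldh1a3, Lrat and Cyp26c1 were not tested. Rarb and Aldh1a1, with few untreated counts, passed the count filter through the RA samples, so the count of risers is a description only. Among the enzymes that make or store RA, Rdh10, which oxidises retinol, stood at 12.1 to 30.7 CPM untreated (median 26.0) and at 126, 145 and 152 after RA. Dhrs3, which reduces retinaldehyde back to retinol, stood at 2.73 to 4.91 (median 4.02) and at 49.6, 30.4 and 39.9. Both were separated from the untreated range in all RA samples, with log2 fold changes of 2.62 (SE 0.12, adjusted p = 1.59e-13) for Rdh10 and 3.35 (SE 0.20, 6.20e-12) for Dhrs3. The retinaldehyde dehydrogenases that form RA were scarce: Aldh1a1 gathered 12 counts over the untreated and 30 over the RA samples (log2 2.47, SE 0.65, adjusted p = 0.00230). Aldh1a2 gathered 48 and 25 and was not called (log2 0.19, SE 0.53, adjusted p = 0.770).

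Of 6 uptake and carrier genes 3 rose, 1 fell and 2, Fabp5 and Rbp4, were not called. Stra6, the membrane receptor for retinol carried by serum RBP4, stood at 0.910 to 4.46 CPM (median 2.34) and at 25.1, 17.6 and 14 after RA. Crabp2, which hands RA to its receptors, stood at 7.02 to 12.4 (median 8.90) and at 65.8, 72.4 and 86.7. Neither pair of ranges overlapped, and the log2 fold changes were 2.95 (SE 0.33, adjusted p = 3.33e-07) and 2.97 (SE 0.14, 1.21e-13). Crabp1, a related RA-binding protein, went the other way, from 18 to 24.6 CPM (median 23.3) to 12.9, 19 and 6.41. Its fall of -0.80 (SE 0.24, adjusted p = 0.00664) rests on sample 2i, without which it was -0.46 (adjusted p = 0.0539).

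The receptors divided. Rarg, a receptor of the RAR family, stood at 31.7 to 102 CPM untreated (median 62.6) and at 26.8, 27.9 and 23.2 after RA. These RA values lay below every untreated sample (log2 -1.24, SE 0.25, adjusted p = 0.00102). Rarb, itself a classical RA target, was near the detection limit, at 0 to 0.361 CPM untreated and 1.01, 1.72 and 2.20 after RA. These are 7 counts over the 6 untreated and 24 over the 3 RA samples, for a log2 fold change of 2.63 (SE 0.68, adjusted p = 0.00208). Rxrg, an RXR, fell from 2.83 to 5.71 CPM (median 3.53) to 1.52, 0.382 and 0.200 (log2 -2.56, SE 0.52, adjusted p = 0.000214). Rara stood at 22.0 to 36.7 untreated and at 39.5, 30.2 and 38.3 after RA, which overlap. Its call (log2 0.33, SE 0.13, adjusted p = 0.0404) was lost without any 1 of samples 2b, 2c, 2d, 2e and 2i, with log2 values of 0.21 to 0.32 and adjusted p from 0.0646 to 0.267. Rxrb, at a log2 fold change of -0.23 (adjusted p = 0.0488), lost its call likewise without any 1 of 2a, 2b, 2d, 2e, 2g and 2i, at 0.0690 to 0.207. Without 2g the Rxrb value is that of KO alone. Rxra was not called (log2 -0.09, SE 0.17, adjusted p = 0.661).

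The degrading enzymes Cyp26a1 and Cyp26b1 both rose. Cyp26a1 stood at 20.7 to 33.2 CPM untreated (median 26.5) and at 111, 200 and 219 after RA, with no overlap (log2 2.69, SE 0.13, adjusted p = 3.66e-13). The classical RA response element is a direct repeat of AGGTCA-like half-sites with 5 bases between them. Promoter windows of 300 bases, from 250 before to 50 after the start of each gene in RefSeq (GRCm38.p6), were therefore searched on both strands. The search took 2 half-sites in the same direction, 5 bases apart and not overlapping, where a half-site was AGGTCA, or the variant AGTTCA, or the variant GGGTCA, or the variant GGTTCA. It found the repeat in 32 of 32851 promoters (0.0974%), in 3 of 4620 of genes called higher (0.0649%), in 1 of 4067 of genes called lower (0.0246%) and in 1 of 4803 of genes not called (0.0208%). Of the 41 promoters matched to 24 of the RA list's genes, 2 held it, those of Cyp26a1 and Rarb. None of the 24 promoters of 22 Hox genes did. The 120 bases before the RefSeq start are shown for both carriers. They are also shown for Cyp26b1 and Hoxa5, which rose strongly and hold no such repeat in the window. The RefSeq start of Cyp26b1 lies inside the gene span given above, so most of the bases printed for it fall within that span. Capitals mark the half-sites of the repeat and leave single half-sites in lower case. The repeats lie at positions -32 to -16 in Cyp26a1 and -53 to -37 in Rarb, counted back from the start.
Cyp26a1 (chr19:37697688-37697807, plus strand): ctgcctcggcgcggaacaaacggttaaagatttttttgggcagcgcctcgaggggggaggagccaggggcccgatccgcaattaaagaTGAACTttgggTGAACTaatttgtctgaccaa
Rarb (chr14:16575477-16575596, minus strand): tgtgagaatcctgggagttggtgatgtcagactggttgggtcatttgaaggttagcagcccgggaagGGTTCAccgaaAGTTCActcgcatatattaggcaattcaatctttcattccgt
Cyp26b1 (chr6:84593811-84593930, minus strand): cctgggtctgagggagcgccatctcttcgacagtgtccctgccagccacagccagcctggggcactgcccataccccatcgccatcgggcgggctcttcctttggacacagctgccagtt
Hoxa5 (chr6:52204588-52204707, minus strand): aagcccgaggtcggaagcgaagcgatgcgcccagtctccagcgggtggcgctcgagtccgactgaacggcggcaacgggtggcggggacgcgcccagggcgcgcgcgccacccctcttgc

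The Cyp26a1 repeat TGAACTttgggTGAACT reads as AGTTCA on the opposite strand, and that of Rarb, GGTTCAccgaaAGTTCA, on the strand of the gene. Spacings of 2 bases and of 1 base were searched too. Half-sites 2 bases apart stood in 0.0649% of promoters of genes called higher, 0.0492% of those called lower and 0.125% of those not called. For 1 base apart the shares were 0.108%, 0.344% and 0.208%. No promoter of the RA or Hox list held either. A match is a description of the letters. Binding was not measured, and the absence of a match in Cyp26b1 and Hoxa5 concerns this window only.

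Among early targets, 9 of 11 rose and 1 fell. Meis1, a homeodomain partner of Hox proteins, stood at 7.47 to 12.8 CPM (median 11.2) and at 127, 107 and 122 after RA. Its relative Meis2 stood at 32.2 to 55.3 (median 40.1) and at 408, 334 and 334. Every RA sample lay above the untreated range for both, with log2 fold changes of 3.46 and 3.05 (SE 0.13 and 0.12, adjusted p = 6.26e-15 and 1.59e-13). The orphan nuclear receptors Nr2f1 and Nr2f2 (COUP-TFI and COUP-TFII) stood at 11.7 to 16.5 and 25.0 to 43.5 CPM. After RA they stood at 180, 89.6 and 80.7 (Nr2f1) and at 324, 232 and 219 (Nr2f2), so the WT sample was highest for both. Nr2f1 rose by 3.71 in WT and 2.57 in KO on the log2 scale, and this difference was called (adjusted p = 0.0241), while that of Nr2f2, at 3.49 and 2.68, was not (0.113). Nr6a1, an orphan receptor of early embryos, was the one early target to fall, from 347 to 513 CPM to 226, 359 and 331, ranges that overlap (log2 -0.52, SE 0.08, adjusted p = 1.80e-05).

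Stra8, a gene that RA induces in germ cells, was called in KO and not in WT. It stood at 91.8 and 64.5 CPM in untreated WT and at 94.4 in the WT RA sample, but at 27.0 to 41.9 in untreated KO and at 121 and 148 in the KO RA samples. The log2 effects were 0.30 in WT, not called, and 1.96 in KO, a called difference (adjusted p = 0.00425), so its common fold change of 1.44 (adjusted p = 0.00709) describes the KO samples. The titles name no batches, but the untreated libraries were split by their own counts into groups here called sub-batches A and B. The cut was made at the widest gap along their leading principal component, which gives a split in any data. With the libraries of B alone the common Stra8 call was lost (1.13, adjusted p = 0.0679).

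**Figure D2:**
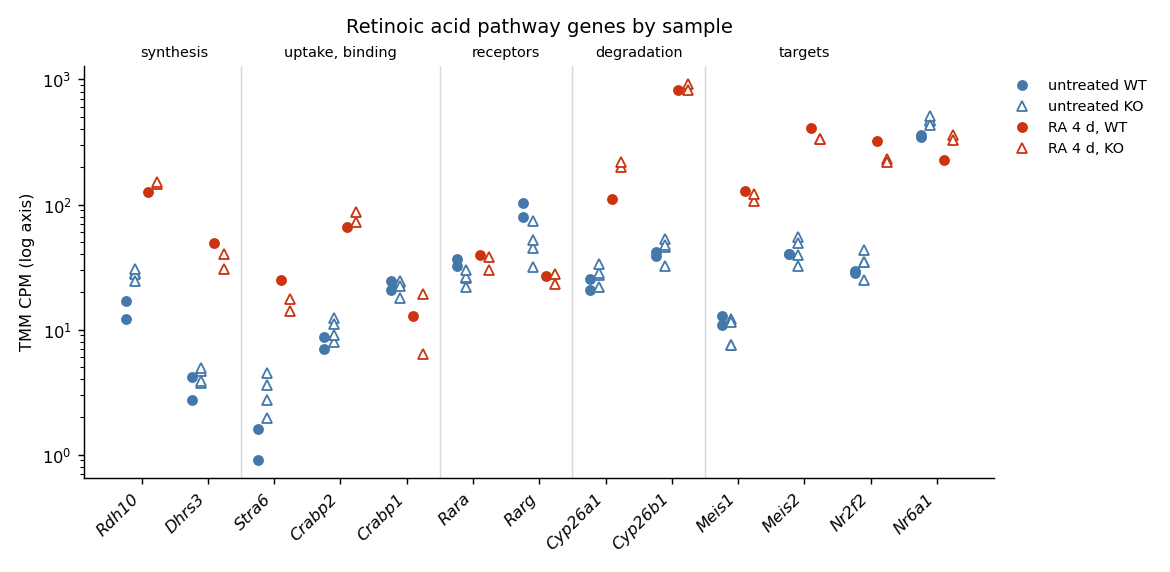
CPM on a log axis of 13 RA pathway genes in each of the 9 samples, ordered by role, blue for untreated and red for RA, filled circles for WT and open triangles for KO. The red points lie above all blue points for Rdh10, Dhrs3, Stra6, Crabp2, the Cyp26 genes, Meis1, Meis2 and Nr2f2, and below them for Rarg.

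Hox genes, which encode position along the body axis and lie in 4 clusters, rose almost without exception. Of 39 listed genes 31 were tested, 30 rose and none fell (median log2 fold change 3.11), with only Hoxa11 not called (log2 0.86, SE 0.55, adjusted p = 0.177). In both genotypes 28 of the 31 were called higher. The summed level of the list was 77.2 to 112.6 CPM untreated and 965.2 to 1255 after RA. Untested for want of counts were Hoxa3, Hoxa6, Hoxa13, Hoxc12, Hoxd1, Hoxd3, Hoxd11 and Hoxd12. Several that were tested passed the count filter through the RA samples, such as Hoxb2 with 4 counts over all untreated and 33 over all RA samples, so the count of risers is a description only. By cluster, the median log2 fold change was 2.78 in A (7 of 8 tested genes rose), 3.67 in B (10 of 10), 3.49 in C (8 of 8) and 2.95 in D (5 of 5).

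By position within the clusters, the anterior paralogues 1 to 4 had a median of 3.08 (9 tested), paralogues 5 to 9 one of 3.74 (14 tested) and the posterior paralogues 10 to 13 one of 2.32 (8 tested). Hoxb4 stood at 5.77 to 13 CPM and at 114, 106 and 103 after RA (log2 3.64, SE 0.15). Hoxb5 stood at 2.52 to 4.55 and at 64.8, 50.2 and 44.3 (log2 3.78, SE 0.16). These RA samples lay far above the untreated ones. Of the posterior genes, Hoxb13 stood at 0.975 to 2.89 CPM and at 5.32, 4.01 and 5.41 (log2 1.48, SE 0.34, adjusted p = 0.000768). Hoxd13 stood at 0.721 to 2.60 and at 4.56, 3.82 and 4.01 (log2 1.46, SE 0.39, adjusted p = 0.00284). The largest changes were in Hoxb6, Hoxa5 and Hoxc5, at 4.56, 4.56 and 4.42. The genotype difference was called for 2 of 31, Hoxc8 and Hoxd4, which rose in both genotypes and by 1.37 and 1.67 log2 units less in KO. The counting options were at their defaults as far as the sources state, and strand was not given, so reads of antisense transcripts in the clusters cannot be told apart from those of the Hox genes.

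**Figure D3:**
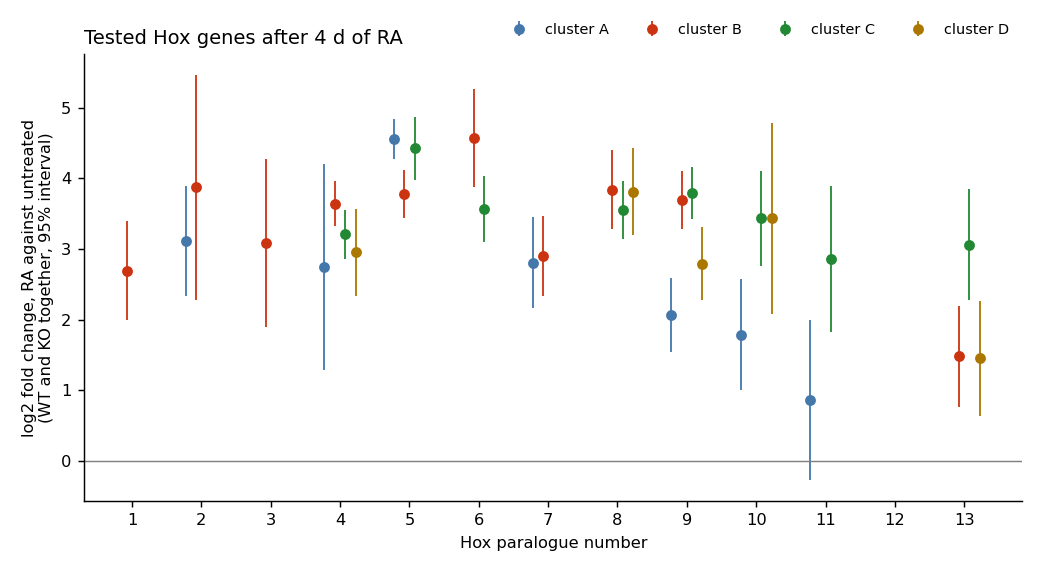
Log2 fold change of 30 of the 31 tested Hox genes after RA (y axis, common to WT and KO, bars are 95% intervals) by paralogue number (x axis) and cluster (colour). All points lie above 0, and the interval of Hoxa11 alone crosses it.

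Pluripotency genes fell together. Of 35 core and naive pluripotency genes tested (36 listed), 34 fell, none rose and Tbx3 was not called, with a median of -2.86. Without sample 2i Tbx3 was called lower (log2 -0.52, adjusted p = 0.0363). All of the 34 were called lower in both genotypes, and the summed level dropped from between 8050 and 11750 CPM to between 2036 and 2204. Sox2, a core factor that also marks neural progenitors, stood at 274 to 457 CPM (median 337) and at 57.7, 56.2 and 57.1 after RA. Esrrb, an orphan receptor of the naive state, stood at 157 to 353 (median 186) and at 33.4, 33.6 and 28.8. Tdgf1, the Nodal co-receptor Cripto, stood at 329 to 458 (median 356) and at 32.9, 27.5 and 27.2. All lay below the untreated range, with log2 fold changes of -2.61 (SE 0.13, adjusted p = 4.20e-13), -2.74 (SE 0.15, 1.44e-11) and -3.68 (SE 0.10, 9.29e-17). Tdh, the threonine dehydrogenase of mouse ESCs, was among the most abundant members, at 995 to 1328 CPM and then 91.6, 115 and 104 (log2 -3.46, SE 0.12).

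The fall was uneven within the list. Nr0b1 (Dax1) had the most negative value, from 6.49 to 54.8 CPM to 0.506, 0.764 and 0.401 (log2 -5.27, SE 0.85). Sall4 fell from 214 to 235 CPM to 38.7, 62.7 and 66.3 (log2 -2.02, SE 0.12). Klf5 kept more of its transcript, at 311 to 450 untreated and 163, 214 and 236 after RA (log2 -0.83, SE 0.13). Dppa4 changed least of those called, at 370 to 681 and then 339, 328 and 340 (log2 -0.51, SE 0.12). Without sample 2g, which leaves the KO effect alone, its log2 fold change was -0.30. Klf4 and Klf5 were the members whose fall differed by genotype: Klf4 changed by -3.01 in WT and -1.33 in KO (adjusted p = 0.000423), and Klf5 by -1.43 and -0.57 (adjusted p = 0.0146). For Klf4 the untreated WT samples held 418 and 448 CPM, the highest of the 6. Pou5f1 (Oct4) had only 0.721 to 8.90 CPM untreated, and its call (log2 -2.49, SE 0.50) is uncertain because reads shared with its near-identical copies may not have been counted.

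Genes of the later, formative and primed stages fell as well, 21 of 23 with 2 rising (median -2.45). Otx2, a factor of the formative epiblast and forebrain, stood at 142 to 228 CPM and at 33.2, 31.1 and 25.2 after RA (log2 -2.54, SE 0.13). Pou3f1 (Oct6) stood at 66.8 to 144 and at 13.7, 14.5 and 15.8 (log2 -2.91, SE 0.15). Dusp6, a phosphatase that restrains ERK, was one of the risers, at 172 to 229 and then 661, 536 and 567 (log2 1.65, SE 0.09). In the DNA methylation list 10 of 12 fell and 2 rose (median -1.15). The de novo methyltransferase Dnmt3b stood at 749 to 1204 CPM and at 110, 159 and 134 (log2 -2.91, SE 0.10). Its cofactor Dnmt3l stood at 1049 to 1578 and at 68.6, 90.7 and 78.1 (log2 -4.02, SE 0.16). The dioxygenase Tet3 rose, from 12.3 to 17.2 CPM to 43.3, 46.4 and 44.3 (log2 1.61, SE 0.14).

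The signalling pathways that hold ESCs gave mixed counts. Of 15 LIF-STAT3 genes 7 rose and 4 fell. Socs2, a STAT-induced feedback inhibitor, fell by 2.27 on the log2 scale (SE 0.16), while Jak1, the kinase that signals for LIF, rose by 1.45 (SE 0.09). Of 18 FGF-ERK genes 5 rose and 9 fell, but 3 rose without sample 2g, without sample 2i or with line as a covariate. Without 2g the RA effect comes from KO alone. Fgf4, the ligand that ESCs make themselves, stood at 83.0 to 217 CPM and at 9.11, 10.5 and 10.8 after RA (log2 -3.64, SE 0.20), below all untreated samples. Of 23 Nodal and BMP genes 13 rose and 7 fell. The ligand Nodal stood at 36.4 to 66.9 CPM and at 8.35, 8.79 and 6.61 (log2 -2.77, SE 0.17), whereas Smad6, an inhibitor of BMP signalling, stood at 10.1 to 16.2 and at 88.4, 61.5 and 65.7 (log2 2.34, SE 0.14). Of 12 Lin28 and let-7 target genes 3 rose and 6 fell, among them Lin28a, which blocks let-7 maturation, at 171 to 203 CPM and then 53.9, 70.9 and 57.9 (log2 -1.60, SE 0.10).

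The Wnt pathway list moved mainly upward, with 16 of 26 rising and 4 falling (median 1.25). Wnt6, a ligand, stood at 4.85 to 6.38 CPM and at 96.5, 96.7 and 113 after RA (log2 4.28, SE 0.13, adjusted p = 3.76e-16). The receptor Fzd1 stood at 0.638 to 2.55 and at 20.3, 14.5 and 17 (log2 3.38, SE 0.28). Nkd1, a feedback inhibitor of the pathway, stood at 1.31 to 3.39 and at 13.9, 15.7 and 24.8 (log2 3.01, SE 0.24). Outside the list, 2 further pathway genes were among the 10 highest of genes called in both genotypes and reaching 10 CPM: Wnt10b, a ligand, at 0.546 to 1.61 CPM and then 43.3, 30.2 and 50.1 (log2 5.33, SE 0.25), and Dkk2, a secreted Wnt modulator, at 0.638 to 3.09 and then 61.0, 45.8 and 65.7 (log2 5.07, SE 0.28).

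Neural genes were followed in 3 lists, of transcription factors, progenitor genes and genes of neuronal differentiation. Of 27 neural transcription factors tested (43 listed) 19 rose and 2 fell (median 1.93). Zic1, a zinc finger factor of the dorsal neural tube, stood at 1.30 to 3.61 CPM and at 28.1, 24.3 and 28.6 after RA (log2 3.49, SE 0.23). Irx3, a neural tube homeobox gene, stood at 4.46 to 14.2 and at 52.7, 63.0 and 49.9 (log2 2.44, SE 0.17). Sox4 stood at 38.3 to 60.6 and at 277, 215 and 260 (log2 2.37, SE 0.12). Of 17 progenitor genes 9 rose and 3 fell (median 0.48), and their summed level was 611.1 to 711.2 CPM untreated and 1950 to 2389 after RA. Nes, the intermediate filament nestin, stood at 23.4 to 40.9 and at 168, 155 and 174 (log2 2.43, SE 0.13). Vim, also a mesenchymal filament, stood at 111 to 140 and at 973, 722 and 875 (log2 2.75, SE 0.09), so it made up much of that sum.

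Pax6 and Sox1, classical markers of committed neuroectoderm, were looked up after their values were seen. Pax6 stood at 1.44 to 7.97 CPM and at 15.7, 13 and 13.2 (log2 1.75, SE 0.29, adjusted p = 2.17e-05). Sox1 stood at 0.892 to 3.24 and at 3.80, 2.87 and 2.00 and was not called (log2 0.44, SE 0.40, adjusted p = 0.354). Of 34 neuronal differentiation genes 12 rose and 14 fell (median -0.24). Stmn2, a stathmin of growing axons, stood at 257 to 533 CPM and at 78.2, 60.4 and 64.3 (log2 -2.35, SE 0.12). Ina, a neuronal filament, stood at 31.2 to 59.6 and at 9.37, 9.17 and 7.21 (log2 -2.30, SE 0.17). Thus Stmn2 fell while Stmn4 of the same family rose. Tubb3, neuronal tubulin, was also looked up after its value was seen: its RA samples (110, 68.2 and 111 CPM) overlapped the untreated range of 42.9 to 91.8 (log2 0.59, SE 0.15, adjusted p = 0.00244; 0.33, adjusted p = 0.0447, without sample 2i). Its call was lost without the genotype covariate (0.55, adjusted p = 0.0716) and with the untreated libraries of sub-batch A alone (0.47, adjusted p = 0.157).

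All 15 neural crest genes tested (16 listed, Sox10 was not tested) were called, 12 higher and 3 lower (median 2.80). Foxd3, a crest factor described below, was outside this list and fell. Ets1 stood at 11.6 to 29.9 CPM and at 185, 156 and 176 after RA (log2 3.04, SE 0.18), with a smaller rise in KO than in WT (2.63 against 3.87, adjusted p of the difference 0.00666). Foxc2 stood at 0.319 to 1.01 and at 15.2, 7.83 and 8.61 (log2 3.86, SE 0.32). Twist1 stood at 4.15 to 6.06 and at 46.1, 32.9 and 37.5 (log2 2.91, SE 0.17). These factors also mark mesenchyme. Tfap2c fell, from 185 to 317 CPM to 40, 38.2 and 42.3 (log2 -2.64, SE 0.13), a factor that trophoblast and naive ESCs share. In the list of cadherins and factors of the epithelial to mesenchymal transition 10 of 15 rose and 4 fell. Zeb2, a repressor of epithelial genes, stood at 2.55 to 4.36 CPM and at 30.6, 27.7 and 26.4 (log2 2.93, SE 0.19), and the epithelial adhesion molecule Epcam stood at 245 to 339 and at 45.1, 79.3 and 78.5 (log2 -2.09, SE 0.11).

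Of 26 primitive and visceral endoderm genes 17 rose and 4 fell (median 0.62), but 9 rose when the genotype covariate was dropped. Genes called in both genotypes numbered 10 higher and 3 lower. Taken singly, WT had 11 called higher and 4 lower, and KO had 18 and 3. The summed level of the list was 1173 and 1120 CPM in untreated WT and 1808 in WT after RA. In KO it was 1741 to 2031 untreated and 3267 and 3123 after RA. Within each genotype the RA samples thus lay above the untreated ones, although the WT RA value lay inside the range of untreated KO. Plat, a plasminogen activator that RA induces in endoderm-like cells, stood at 10.5 to 21.6 and at 172, 152 and 155 (log2 3.29, SE 0.14). Col4a1, a basement membrane collagen, stood at 113 and 91.6 CPM in untreated WT and at 314 in WT after RA, with 653 and 595 in KO after RA (log2 1.57, SE 0.08). Apoe, an apolipoprotein of the yolk sac, fell from 128 to 172 CPM to 37.2, 41.5 and 40.7 (log2 -1.90, SE 0.11). The lineage factors Foxa2 and Gata4, looked up after their values were seen, were higher in the KO RA samples than in the WT one. Foxa2 stood at 43.0 in the WT RA sample and at 108 and 109 in KO, with untreated levels of 39.3 to 64.9 (log2 0.60, SE 0.12, adjusted p = 0.000196, and 0.0680 without the genotype covariate). Gata4 stood at 2.78, 16.2 and 16.6 after RA and at 2.87 to 9.38 untreated. Its call (log2 0.73, SE 0.25, adjusted p = 0.0158) was lost without 2e, 2h or 2i, at adjusted p from 0.0506 to 0.112. The difference between genotypes was called for neither (adjusted p = 0.144 for Foxa2 and 0.244 for Gata4).

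The mesodermal and blood lists lay nearer the background, and the trophectoderm list moved both ways. Of 19 primitive streak and mesoderm genes 7 rose and 5 fell. Foxf1, a factor of lateral and visceral mesoderm, stood at 0.319 to 2.5 CPM and at 8.10, 6.69 and 10.02 after RA (log2 2.88, SE 0.38), whereas Eomes, of the primitive streak, stood at 11.8 to 22.5 and at 5.82, 7.64 and 4.81 (log2 -1.45, SE 0.23). Of 10 blood, endothelium and heart genes tested (20 listed) 4 rose and 2 fell. Actc1, cardiac actin, rose by 3.32 (SE 0.27) and the endothelial and ESC adhesion molecule Pecam1 fell by 3.07 (SE 0.21) on the log2 scale. Of 18 trophectoderm and epithelial genes 9 rose and 5 fell. Gata3 stood at 4.05 to 7.85 CPM and at 60.0, 56.4 and 71.1 (log2 3.54, SE 0.16), and the keratin Krt8 at 20.4 to 55.8 and at 106, 186 and 201 (log2 2.10, SE 0.12). The AP-2 factor Tfap2c fell, from 185 to 317 CPM to 40, 38.2 and 42.3 (log2 -2.64, SE 0.13). The epithelial adhesion molecule Epcam fell from 245 to 339 CPM to 45.1, 79.3 and 78.5 (log2 -2.09, SE 0.11). The summed level of the list was lower in every RA sample, at 2220 to 3615 CPM against 4025 to 5581 untreated.

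Markers of the feeder fibroblasts were mostly higher after RA. Of 33 tested (35 listed; Col6a2 and Lum had too few counts), 28 rose, 1 fell and 4 were not called (median 2.15), and 27 were called higher in both genotypes. Their summed level was 2116 to 3488 CPM untreated and 15540 (2g), 15460 (2h) and 17580 (2i) after RA, and no member was at 0 in all samples of either group. Lgals1, galectin 1, stood at 176 to 268 CPM and at 2025, 1954 and 2222 (log2 3.23, SE 0.09). Col3a1, a fibrillar collagen of connective tissue, stood at 7.97 to 12.7 and at 125, 112 and 138 (log2 3.54, SE 0.12). Sparc, a matrix protein that endoderm makes too, stood at 620 to 1090 and at 3195, 3799 and 3969 (log2 2.08, SE 0.08). A large part of the sum was Acta2, smooth muscle actin (looked up after its value was seen), at 141 to 246 CPM and then 4192, 3821 and 4430 (log2 4.38, SE 0.12).

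Some fibroblast markers, also looked up after their values were seen, were not called higher. Thy1, a surface marker of fibroblasts, stood at 0.638 to 6.0 CPM and at 2.03, 3.63 and 4.01 (log2 -0.13, SE 0.37, adjusted p = 0.777). S100a4 stood at 58.0 to 182 and at 83.0, 100 and 123 (log2 0.24, SE 0.33, adjusted p = 0.565). This turned on the untreated samples. S100a4 was called higher without sample 2f (log2 0.50, adjusted p = 0.000962), without both untreated KO2 samples (0.55, 0.00149) and with the untreated libraries of sub-batch B alone (0.89, 3.85e-08). Its sign was reversed with those of sub-batch A alone (-0.23, 0.216). Col6a3 stood at 5.05 to 21.4 and at 2.78, 3.63 and 1.80 (log2 -1.57, SE 0.50, adjusted p = 0.0136). Its call was lost without sample 2i (-1.26, adjusted p = 0.0650) and with sub-batch B alone (-0.44, 0.354). Many listed genes are also made by mesoderm, neural crest and endoderm. The share of these reads that came from feeders, and its part in the rise of the matrix, crest and Wnt genes, was not tested. In bulk RNA, more cells of a type and more RNA per cell cannot be told apart, here or in any list above.

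**Figure D4:**
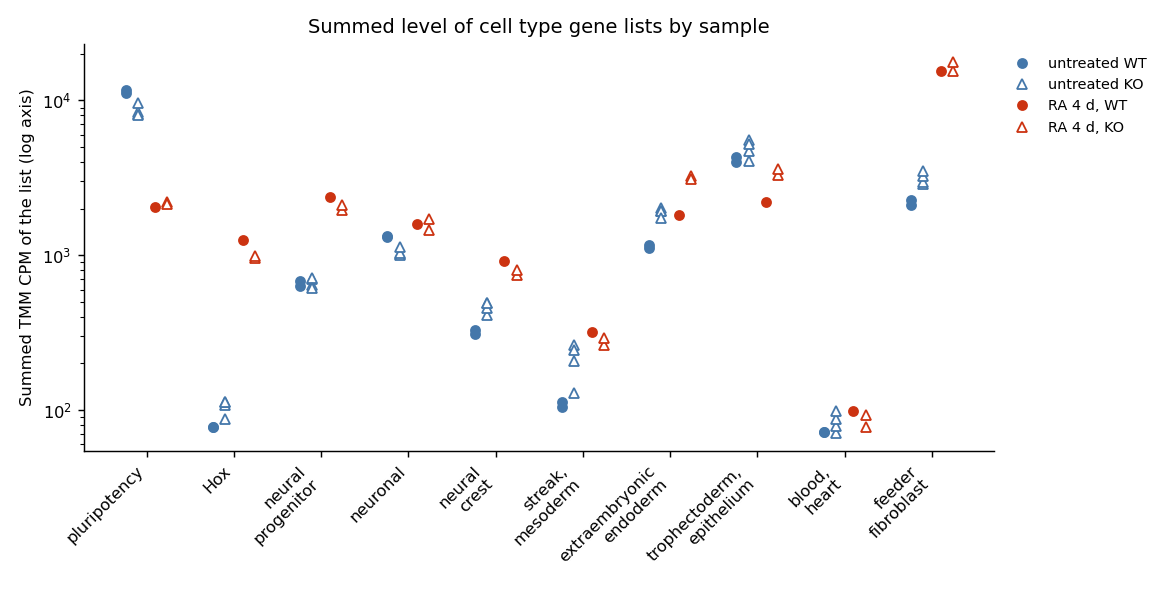
Summed CPM (log axis) of 10 gene lists in each sample, blue for untreated and red for RA, filled circles for WT and open triangles for KO. Red and blue do not overlap for the pluripotency, Hox, neural, crest, mesoderm, trophectoderm and feeder lists, and overlap for the endoderm list and the blood and heart list. The gap is narrow for the mesoderm list, at up to 261.5 CPM untreated and from 264.9 after RA. A sum can follow a few abundant genes: in the neuronal list 12 genes rose and 14 fell.

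The 34 tested genes of DNA replication and mitosis all fell (median -1.20), 31 of them called in both genotypes. Mcm5, a subunit of the replicative helicase, stood at 269 to 357 CPM and at 100, 94.7 and 87.5 after RA (log2 -1.69, SE 0.09). Cdt1, which loads that helicase, stood at 322 to 427 and at 120, 128 and 108 (log2 -1.66, SE 0.10). Of 18 cyclins and inhibitors of cyclin-dependent kinases 6 rose and 7 fell. Ccne1, cyclin E1, stood at 453 to 646 CPM and at 147, 175 and 160 (log2 -1.68, SE 0.11). Ccnd2, the D-type cyclin that differentiating cells gain, stood at 134 to 309 and at 1219, 1500 and 1390 (log2 2.72, SE 0.13). The inhibitor Cdkn2b (p15) stood at 2.23 to 6.82 and at 91.9, 76.8 and 106 (log2 4.26, SE 0.17). Its neighbour Cdkn2a (p16 and p19ARF), looked up after its value was seen, stood at 23 to 73.4 and at 571, 383 and 490 (log2 3.45, SE 0.33).

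Of 28 p53 target genes 20 rose and 2 fell (median 0.95). Plk2, a stress-induced kinase, stood at 51.0 to 115 CPM and at 388, 418 and 489 after RA (log2 2.36, SE 0.12). Perp, an effector of p53 and a desmosome protein, stood at 37.3 to 81.9 and at 219, 209 and 270 (log2 2.06, SE 0.13). Cdkn1a (p21), the classical target, was looked up after its value was seen: it stood at 72.4 and 66.8 in untreated WT, at 184 to 217 in untreated KO and at 535, 548 and 660 after RA. Untreated KO thus began above untreated WT while the RA levels were close, and the effects of 2.95 in WT and 1.65 in KO differed (adjusted p = 0.000389). Plk2 had the same order, at 2.91 and 2.08 (adjusted p of the difference 0.0220).

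Lists of growth and metabolism had more genes that fell than rose. Of 26 glycolysis and hypoxia response genes 22 fell and 3 rose (median -1.28). Pdk1, which diverts pyruvate from mitochondria, stood at 207 to 268 CPM and at 25.3, 40.3 and 31.5 after RA (log2 -2.87, SE 0.14). Ldha, lactate dehydrogenase, stood at 350 to 470 and at 110, 138 and 126 (log2 -1.76, SE 0.10), though reads shared with its processed copies may be uncounted. Of 43 ribosomal protein genes 34 fell and none rose (median -0.73), and their summed level went from 23890 to 27480 CPM to 15590 to 16270. Of 34 oxidative phosphorylation genes 16 fell and 1 rose, and of 24 cholesterol synthesis genes 10 fell and 3 rose. The cholesterol count leaned on KO, where 13 were called lower and 3 higher, against 4 and 3 in WT. Only 3 cholesterol genes were called lower in both genotypes, though the difference between genotypes was called for none. Of 24 ATF4 and unfolded protein genes 11 fell and 6 rose, among the former Trib3, a stress-induced pseudokinase, from 32.5 to 52.3 CPM to 6.08, 8.40 and 10.4 (log2 -2.23, SE 0.19).

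Imprinted genes, which are expressed from 1 parental copy, rose in 20 of 26 cases and fell in 3 (median 1.42). Peg10 stood at 58.2 to 90.5 CPM and at 262, 329 and 337 after RA (log2 2.04, SE 0.09), and Igf2r, the receptor that clears IGF2, at 103 to 156 and at 463, 387 and 385 (log2 1.75, SE 0.11). The placental growth regulator Phlda2 fell, from 68.9 to 114 CPM to 14.7, 20.2 and 20.2 (log2 -2.25, SE 0.16). Of 19 germline genes 5 rose and 8 fell. Meioc, of meiotic prophase, rose from 19.2 to 33.2 CPM to 85.3, 89.6 and 111 (log2 1.98, SE 0.13), and Tex19.1 fell by 1.61 (SE 0.10) on the log2 scale. Of 11 genes of MHC class I and antigen processing 3 rose and 4 fell. In WT 6 were called higher and 1 lower, in KO 3 and 5, and the difference between genotypes was called for 2, Tap1 and Tap2 (Tap2 was looked up after its values were seen). The count of risers was 6 under the mean of the WT and KO effects and with sub-batch A alone. B2m, the light chain of class I, stood at 13.4 to 26.9 and at 111, 92.6 and 116 (log2 2.49, SE 0.15). Of 15 interferon response genes 2 rose and 5 fell. Of 14 linker and replacement histones 4 rose and 7 fell, and the linker histone Hist1h1c rose by 1.68 (SE 0.11). Only 2 of 14 genes of the 2-cell-like state could be tested, and 1 fell.

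Set itself, which encodes a chaperone of histones that also inhibits the phosphatase PP2A, stood at 1175 and 1360 CPM in untreated WT and at 540 in WT after RA. In KO it stood at 268 to 551 untreated and at 259 and 176 after RA. The RA and untreated ranges overlapped, and the common fold change of -1.06 (SE 0.25, adjusted p = 0.00677) was called in neither genotype alone (-1.23 in WT, -0.97 in KO) and lost its call without the genotype covariate (-1.13, adjusted p = 0.172). Of 25 histone chaperones and PP2A genes 21 fell and none rose (median -0.62). Nasp, a chaperone of histone H3, stood at 1210 to 1634 CPM and at 566, 492 and 452 (log2 -1.47, SE 0.08).

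**Figure D5:**
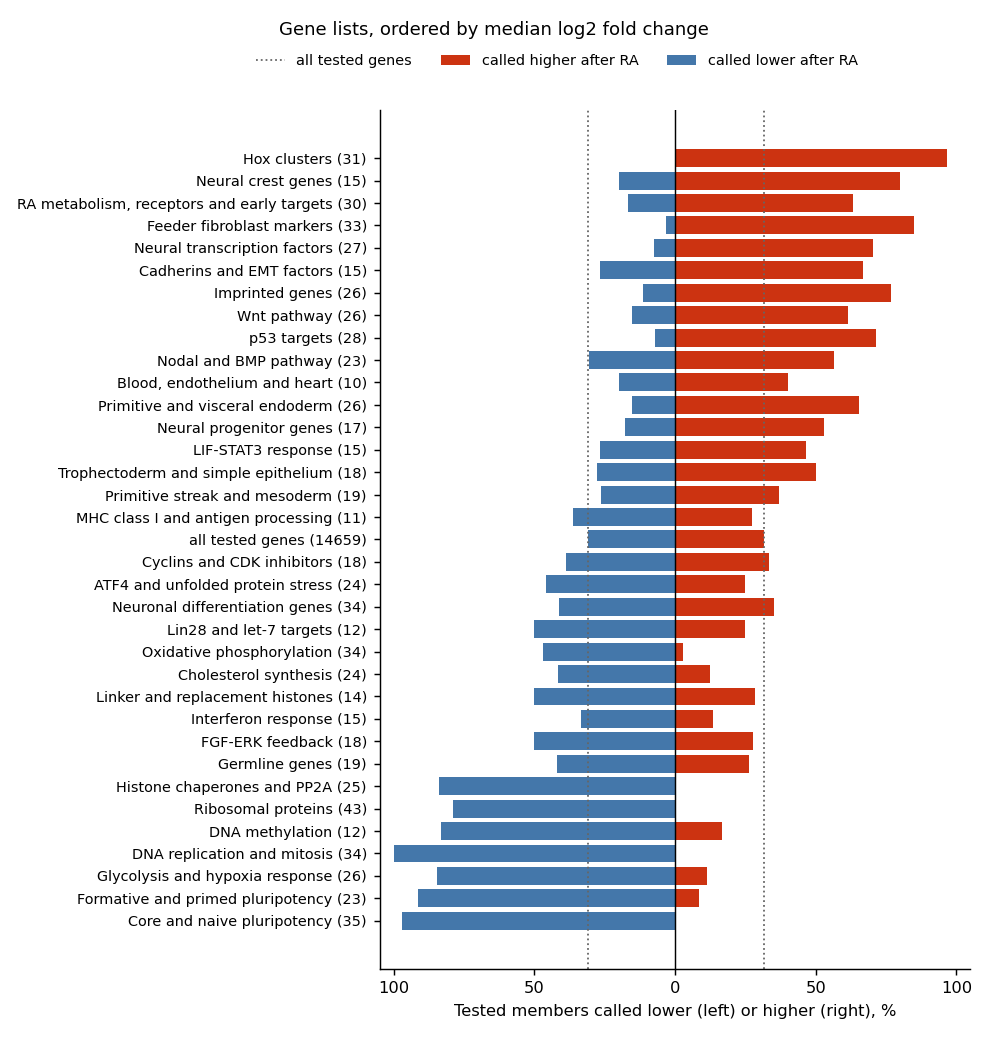
Percentage of tested members called higher (red, right) or lower (blue, left) after RA for the 34 gene lists with at least 10 tested genes, ordered by median log2 fold change, with the number tested in brackets. Dotted lines mark all tested genes at 31.6% and 30.8%, and Hox and pluripotency stand at the top and bottom.

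The most strongly changed genes shared by both genotypes included several with little or no signal before treatment. Uts2b, which encodes a peptide of the urotensin family, had the highest value of genes called in both genotypes and reaching 10 CPM, with 4 counts over the untreated samples and 284 after RA, at 16.2, 21.2 and 21.8 CPM (log2 6.92, SE 0.40). Slc16a12, a monocarboxylate transporter relative, stood at 0 to 1.070 and at 16.7, 12.4 and 17.4 (log2 4.86, SE 0.39). Duox2, an oxidase that makes hydrogen peroxide, stood at 0 to 1.01 and at 12.9, 9.74 and 11 (log2 4.67, SE 0.44). Prkg1, a kinase of smooth muscle activated by cyclic GMP, stood at 0.361 to 1.62 and at 21.5, 23.7 and 26.0 (log2 4.56, SE 0.26), and the keratin Krt20 at 0.361 to 1.62 and at 14.4, 19.9 and 25.0 (log2 4.51, SE 0.29). None of these ranges overlapped, but the genes were chosen for their fold change in this same comparison, so the separation is a description only.

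At the other end stood genes that RA samples had nearly lost. Foxd3, a forkhead factor of ESCs and neural crest, stood at 35.0 to 66.3 CPM and at 1.27, 2.10 and 2.20 after RA (log2 -4.69, SE 0.26). Tcf15, a factor of ESCs leaving the naive state, stood at 145 to 519 and at 14.7, 16.8 and 14.6 (log2 -4.09, SE 0.43). Trh, a neuropeptide precursor, stood at 197 to 281 and at 18.5, 15.1 and 12.0 (log2 -4.03, SE 0.15). Gdf3, a ligand of the TGF-β family, stood at 49.8 to 82.1 and at 4.81, 4.78 and 4.01 (log2 -3.89, SE 0.18). The nicotinic receptor gene Chrna9 fell from 10.7 to 24.6 CPM to 0.759, 0.573 and 0 (log2 -5.26, SE 0.39), with 6 counts left over the RA samples. Every RA sample lay below every untreated sample for these 5 genes, and none of their genotype differences was called. They too were chosen for their fold change, so their separation is a description only.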

How the data were processed

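RNA of 23 libraries was deposited by the authors as raw counts per gene. Per the file headers, featureCounts 1.6.0 assigned reads to genes of Ensembl release 97 (GRCm38). Per the submitters' processing notes, STAR 2.5.4b and Subread 2.0.0 were used. Strand, trimming and the handling of reads with several positions are not given in the sources used here, so genes with near-identical copies and antisense partners are uncertain.

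Of the deposited counts, the 13 libraries titled set 2 were used, and libraries sharing a title code were summed to 9 samples. Set 1 and the KH2 cells, which hold no RA sample, were not analysed here. The files held 55573 genes, of which 179 had no symbol and took at most 0.00066% of a sample's counts. A floor of 3 counts equals 0.294 to 1.06 CPM, depending on the sample. Groups came from the titles, and the members and gene lists were chosen with earlier results of these data known.

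The test was the edgeR 4.0.16 quasi-likelihood F test in R 4.3.3 (limma 3.58.1), with TMM factors, a filterByExpr filter set at a minimum count of 10 and a minimum total of 15, robust dispersions and Benjamini-Hochberg adjustment over all tested genes at 0.05. RA was fitted with genotype as a covariate, and a second fit of group means gave the WT effect, the KO effect and their difference. Intervals are 95%. The scripts were tested on simulated data.

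Named genes were the 4 markers, Set, the 10 highest and 10 lowest fold changes among genes called in both genotypes with at least 10 CPM in the higher group, the 4 called members with the lowest adjusted p, or fewer, from each of 35 lists, and any tested member of the RA, Hox and pluripotency lists. Genes said to be looked up after their values were seen fall outside this rule, and some genes it selects are not reported here. Promoter sequences are from RefSeq (GRCm38.p6).

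Alternatives were DESeq2 1.42.0 size factors and its Wald test, omission of the low-count filter, unsummed libraries, line as covariate, no genotype covariate, the mean of the WT and KO effects, KO2 left out, either of the sub-batches of untreated libraries alone, stricter thresholds and each sample left out in turn. Without sample 2g, the only WT sample after RA, a fit of the common effect holds the KO effect alone. Python 3.11.15 was used with numpy 2.4.6, pandas 2.3.3 and, for figures, matplotlib 3.10.9.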

Additional observations from a re-analysis of the deposited data

Results flagged for a closer look

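The RA effect differed between genotypes by its own test for 12 of 239 named genes. As KO minus WT on the log2 scale, the difference was -1.39 for Stmn4, -1.23 for Ets1, -0.83 for Plk2, -1.58 for Tap1, -1.14 for Nr2f1, -1.04 for Tshz1, -1.37 for Hoxc8, -1.67 for Hoxd4 and -1.30 for Cdkn1a, all of which rose less in KO. It was 0.86 for Klf5 and 1.68 for Klf4, which fell less in KO, and 1.66 for Stra8, which rose in KO. The WT side of each rests on 1 RA sample.

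Among the 4 untreated KO samples, of lines KO1 and KO2 together, 1 sample stood far from the other 3 in 10 of the 239 named genes. Chance alone gives such a gap in about 1 of 20 groups, and this count is no more than that rate gives. Sample 2f was high for Anp32b (1591 CPM, the others 1298 to 1314), Fbxo15 (517, the others 292 to 329), Col6a3 (21.4, the others 5.05 to 6.60) and Cdkn1a (217, the others 184 to 187), and low for Foxa2 (55.2, the others 63.3 to 64.9). Sample 2c was high for Dusp6 (229, the others 172 to 176) and Hoxb2 (0.361, the others 0) and low for Acta2 (181, the others 237 to 246). Sample 2d was high for Uts2b (0.546, the others 0), and 2e low for Hoxc10 (0.178, the others 1.27 to 1.44). The values of Hoxb2, Uts2b and Hoxc10 lie at or below the floor of 3 counts.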

How the results depend on the processing

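The number of genes called for RA kept within 1.5 times its reported value under the alternatives run, except for a limit of 2-fold. With all 9 samples or a subset of the untreated libraries it was 8375 to 9420 for the common effect. Without sample 2g, the only WT sample after RA, the fit of the common effect holds the KO effect alone (7824 genes). Leaving out 1 sample at a time gave 7824 to 9119 for the common effect, 5455 to 6099 for WT, 6136 to 8114 for KO and 4934 to 6163 for the genes called in both. An adjusted p under 0.01 in each genotype left 4571 of the latter, and a change over 2-fold in each left 3207 (1869 higher, 1338 lower). Without the low-count filter, 27606 genes were tested and the median log2 fold change of all genes was -0.18. With sub-batch A alone 5 Lin28 and let-7 targets rose, 3 streak and mesoderm genes and no p53 target fell, and with unsummed libraries 3 interferon genes fell. Of 4755 values of the 239 named genes under the alternatives, 4690 kept their direction and call. The reversed signs were all in genes not called in the reported fit: Aldh1a2 (-0.18 with sub-batch B alone, -0.42 without 2g), Cdx1 (0.16 with sub-batch A), Fabp5 (-0.00375 with B, -0.043 without 2g), Rbp4 (-0.031 as the mean of the WT and KO effects), Rxra (0.0018 with B, 0.013 without 2d, 0.032 without 2i), Tbx3 (0.19 with B), Thy1 (0.029 without 2b, 0.0608 without 2d) and S100a4 (-0.23 with A). The signs without 2g are those of KO alone, and the cause of the others was not tested. Sub-batches A and B, of 5 untreated libraries each, were split by their counts along the leading principal component (28.7% of variance). No title names them, so they may not be batches of processing, and the RA libraries could not be assigned to either. No paired analysis was possible because the titles of the RA samples carry no replicate number. Depth limits genes such as Rarb, Hoxb2 and Aldh1a1, which had few counts.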
